A study of Mus musculus with 8 samples.

Results

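The infarct zone and the remote zone of mouse hearts were compared in 4 of the 8 sequenced libraries, namely 1 infarct zone and 1 remote zone library from WT mice and 1 of each from TKO mice, which lack *Tigar* in the whole body. *Tigar* encodes a phosphatase that acts on sugar phosphates and restrains glycolysis. All mice were male, the left anterior descending coronary artery was tied off permanently at 16 weeks of age, and the zones were snap-frozen. The study imaged such hearts 4 weeks after the ligation, and the sources used here do not state the day on which the zones were taken. Each infarcted heart was divided into zones, but the sources used here do not state whether the same hearts stand behind both libraries of a genotype. RNA of each infarct zone library came from 3 pooled mice, and the sources used here do not name the number of mice behind the remote zone libraries. The infarct zone is the territory whose blood supply was cut, and the remote zone is ventricular muscle away from it. Of the 16994 genes in the table, the 12999 that averaged 1 CPM or more (counts relative to total counts) over all 8 libraries were tested. This filter came before scaling, whereas the CPM given below were scaled by edgeR's TMM method over all 8 libraries. A gene was called when it passed a Benjamini-Hochberg adjusted p of 0.05 in edgeR's quasi-likelihood test, with genotype as a block, and lay on the same side in WT and TKO. Because each genotype supplied 1 library a side, these p-values measure how closely the zone difference of 1 genotype matched that of the other, and not the spread between mice.

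Cardiac muscle that loses its blood supply dies and is replaced by scar. Fibroblasts of the heart turn into matrix-producing myofibroblasts, and once the scar is mature they settle into a quieter state known as the matrifibrocyte, which switches on genes also found in tendon and cartilage. Macrophages clear the dead muscle and remain in the scar, while the surviving working myocardium keeps burning fatty acids in its dense mitochondria to feed the sarcomeres. In RNA from whole tissue, fewer cells of a type and less RNA per cell cannot be told apart, and this holds for every gene group below.

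Total estimated counts lay between 27429240 and 33799249 in the 8 libraries. The target of the deletion, *Tigar*, had 1066 and 1997 counts in the WT infarct and remote zones and 87 in each of the TKO zones, in keeping with the labels. Genes encoded by mitochondrial DNA took 20.7% of the counts in the WT infarct zone, 27.9% in the TKO infarct zone, 39.3% in the WT remote zone, and 38.6% in the TKO remote zone. The TMM factors were 1.54 and 1.26 in the WT and TKO infarct zones and between 0.866 and 0.956 in the other 6 libraries. With plain total counts the median gene moved up by 0.64 on the log2 scale, and the calls split into 7649 higher and 844 lower instead of 3258 and 3084.

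Genes typical of tissues other than ventricle were high in several libraries, and where that RNA came from was not tested. Of the 12 tested genes on a list of lung epithelium drawn up after the values were seen, 11 were higher in the infarct zone in both genotypes. They reached the level required for testing mainly through the infarct libraries, so this count supports nothing. With at least 10 counts in each of the 4 infarct and remote libraries, 5 were tested and 3 called. *Sftpc*, the lung surfactant protein C gene, had 4871 and 10576 counts in the WT and TKO infarct zones, 556 and 35 in the remote zones, and 17 to 135 in the border zones and left ventricles. Genes of fast skeletal muscle were high in the WT infarct library but not in the TKO one: *Myh1*, a fast myosin heavy chain, had 1263 counts in the WT infarct zone and 157 in the WT border zone, but 3 to 10 in the other 6 libraries. Skeletal muscle genes as a list rose in 4 of 13 and fell in 2, 30.8% and 15.4%, against 25.1% and 23.7% of all tested genes. The list's median log2 change was 0.28 without the WT infarct library and 4.80 without the TKO one. Of 10 atrial genes 7 fell and 2 rose, so that several were higher in both remote zone libraries, and 3 were called lower without the WT remote library. *Bmp10*, a growth factor of the right atrium, had 2134 and 305 counts in the WT and TKO remote zones and 34 and 22 in the infarct zones, and *Myl7*, the atrial regulatory light chain, had 5227 and 2031 against 682 and 44. The part of these tissues in the results below was not tested, and a gene that lung, skeletal muscle, or atrium also expresses is subject to it.

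**Figure D1:**
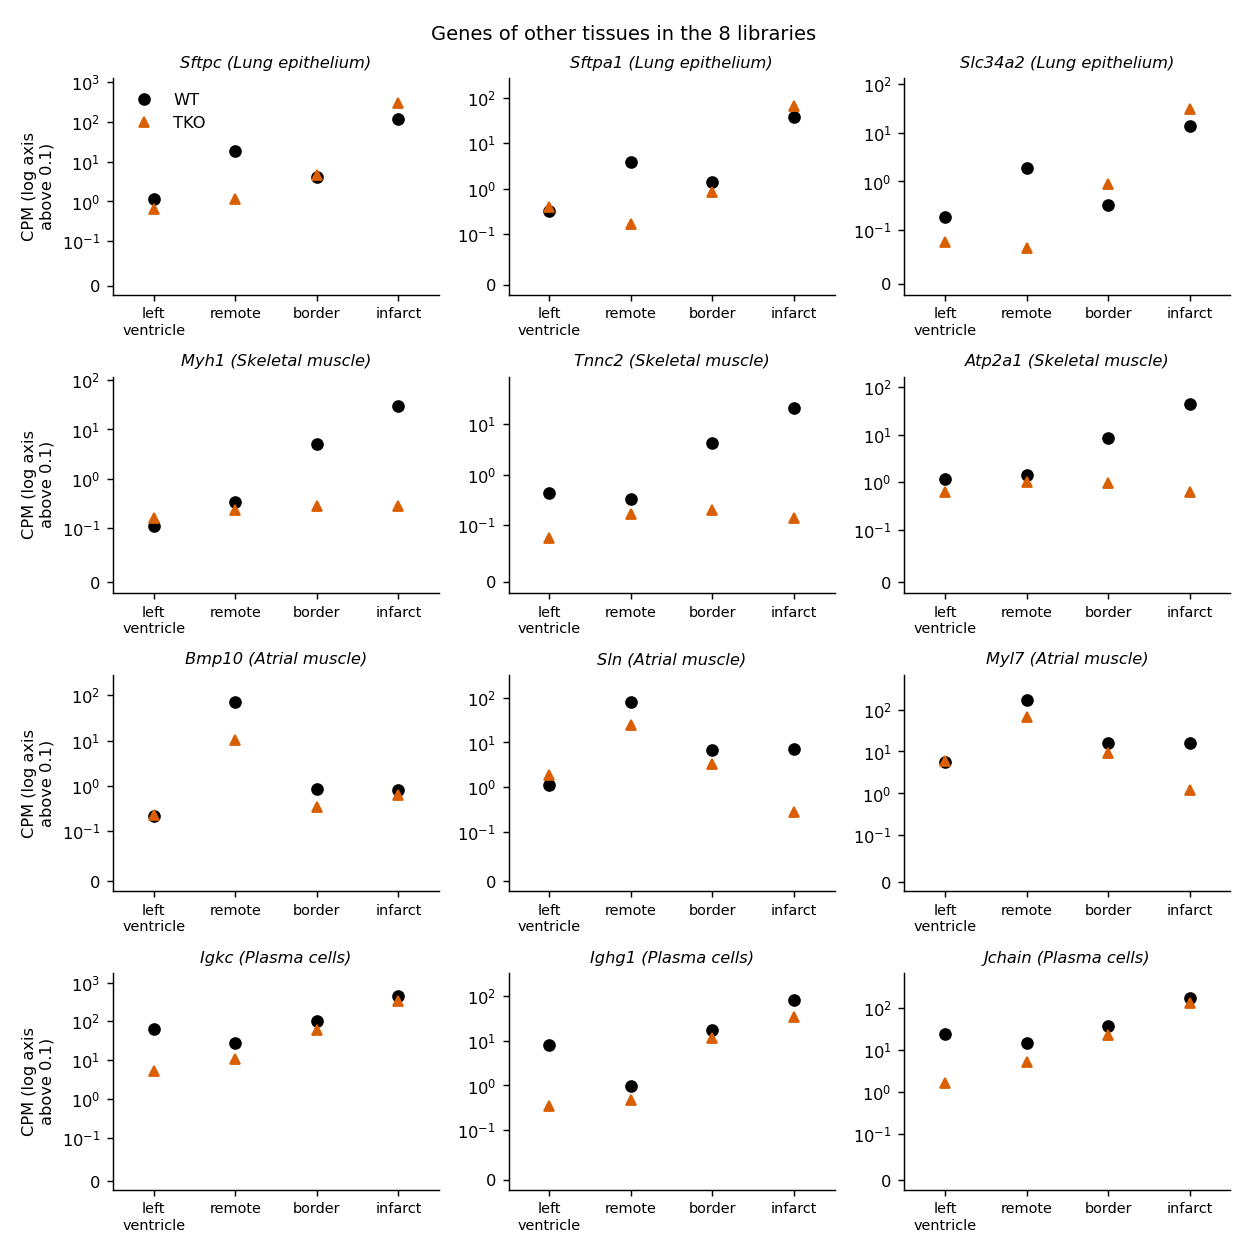
CPM of 12 genes typical of lung epithelium, skeletal muscle, atrial muscle, and plasma cells, on a log axis above 0.1, in WT (circles) and TKO (triangles) libraries of the left ventricle and the remote, border, and infarct zones; each symbol is 1 library. The lung genes stood out in both infarct libraries, the skeletal muscle genes in the WT infarct and border libraries, the atrial genes in both remote libraries, and the plasma cell genes in both infarct libraries.

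Nearly 1 in 2 tested genes differed between the zones. The calls covered 6342 genes, 48.8% of those tested, of which 3258 (25.1%) were higher and 3084 (23.7%) lower in the infarct zone. The counts of every list below are to be read against these 2 shares of all tested genes. At least 2-fold in both genotypes were 1472 genes that were higher, 11.3% of those tested, and 395 that were lower, 3.04%. That imbalance rests on asking for 2-fold in TKO too, since leaving out the TKO infarct library gave 1749 higher and 1510 lower, and leaving out the TKO remote library 1549 and 1250, with the size then asked of WT alone. WT and TKO moved the same way for 11518 genes, or 88.6%, and their log2 ratios correlated with r = 0.817 across genes, which are not independent and share the scaling. The lower side was deeper in WT: of the 3084 genes called lower, 2837 (92%) had the larger change in WT, as had 2146 (65.9%) of those called higher.

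**Figure D2:**
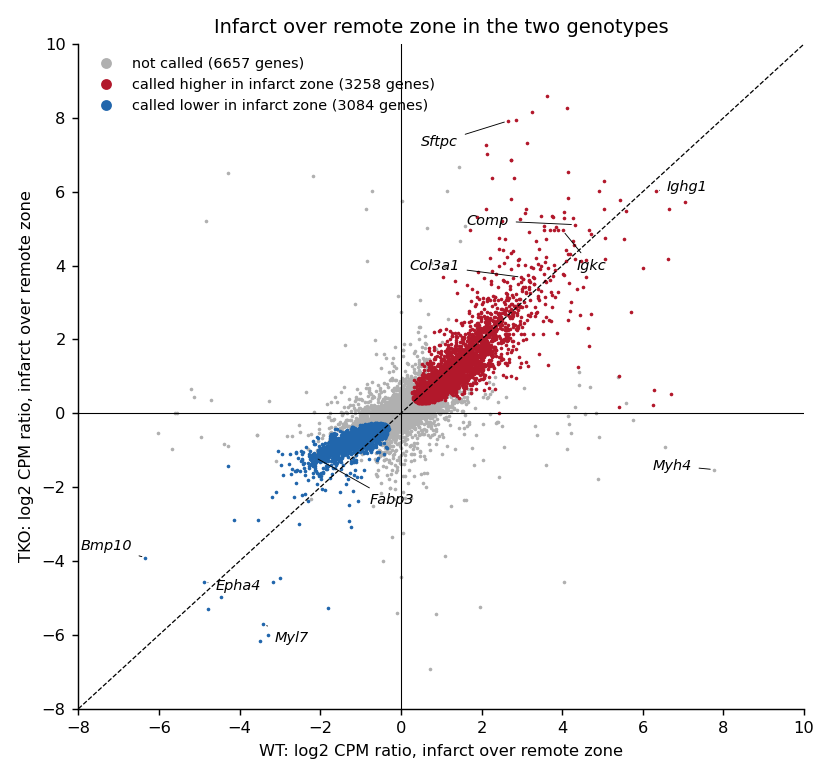
Log2 ratio of infarct over remote zone CPM in WT (horizontal axis) and in TKO (vertical axis) for the 12999 tested genes, each a point; red and blue mark the 3258 genes called higher and the 3084 called lower, and the dashed line marks equal ratios. Most genes lay in the upper right and lower left, and most of those called lower lay above the dashed line, with a smaller change in TKO.

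RNA of genes for fuel use in heart muscle was lower in the infarct zone in both genotypes. Of 27 tested genes for the uptake and oxidation of fatty acids, the main fuel of the heart, 26 fell and none rose, and their median was 2.93-fold lower. *Fabp3*, which carries fatty acids through the cytosol of the muscle cell (chromosome 4, 130308595 to 130315463 of GRCm38), had 737 CPM in the WT and 1380 in the TKO infarct zone, against 3227 and 3152 in the remote zones. Both infarct libraries lay below both remote libraries, the WT one by 4.38-fold (95% exact binomial interval, for counting error only, 4.32 to 4.44) and the TKO one by 2.28-fold (2.26 to 2.31), and the fitted log2 change was −1.66 ± 0.48 (SE, edgeR adjusted p = 0.0456). *Hadhb*, a subunit of the trifunctional protein of beta-oxidation, had 413 and 927 CPM in the infarct zones and 1746 and 2012 in the remote zones (edgeR adjusted p = 0.0293). *Ucp3*, an uncoupling protein of muscle mitochondria, fell by 1.80 on the log2 scale and *Acaa2*, the last enzyme of the beta-oxidation spiral, by the same amount. *Slc27a1*, a fatty acid transporter of the membrane, fell further in TKO (log2 −1.91) than in WT (−1.36). Without the WT remote library, 14 of the 27 genes were called.

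The tricarboxylic acid cycle followed. There 21 of 22 tested genes fell and none rose, with a median 2.59-fold lower. *Idh2*, the mitochondrial isocitrate dehydrogenase that makes NADPH, had 489 and 903 CPM in the WT and TKO infarct zones and 1932 and 2089 in the remote zones. That was 3.96-fold lower in WT and 2.31-fold lower in TKO (edgeR adjusted p = 0.0261). *Sucla2*, which with its partner makes succinate from succinyl-CoA, fell by 1.51 on the log2 scale. Of 19 tested genes for the use of ketone bodies and branched-chain amino acids, 18 fell, with *Ivd* at −1.53, *Acat1* at −1.54, and *Ppm1k*, the phosphatase that switches on branched-chain oxidation, at −1.46. Without the WT remote library, 12 genes of the cycle and 12 of the ketone and amino acid list were called.

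Respiratory chain genes of the nucleus were lower almost without exception. Of 81 tested subunits of complexes I to V, 75 fell and none rose, against 23.7% of all tested genes, and the median was 2.54-fold lower. *Cox7a1*, the muscle form of a cytochrome oxidase subunit, had 128 and 279 CPM in the WT and TKO infarct zones and 619 and 626 in the remote zones (edgeR adjusted p = 0.0164). *Uqcrc1*, a core protein of complex III, had 116 and 248 CPM against 481 and 531 (edgeR adjusted p = 0.0147). In both genes the WT infarct library was the lowest of the 4, the TKO infarct library next, and the remote libraries were close together. Mitochondrial ribosomal proteins, which translate the mitochondrial genome, showed the same direction with a smaller size, since 73 of 76 fell, with a median 1.95-fold lower. With plain total counts, 24 of these 76 were called lower.

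All 13 protein genes of the mitochondrial genome were lower in both infarct libraries, yet none was called by edgeR, and 1 reached an unadjusted p under 0.05. *COX1*, a catalytic subunit of cytochrome oxidase and the most abundant of them, had 40713 and 71646 CPM in the WT and TKO infarct zones and 138399 and 141663 in the remote zones, with a log2 ratio of −1.76 in WT and −0.98 in TKO (edgeR adjusted p = 0.886). *ND1*, a subunit of complex I, had 10713 and 17856 CPM against 35994 and 36189. The Wald test of DESeq2 called all 13 lower, the fit to all 8 libraries called 4, and leaving out the WT or the TKO infarct library gave 10 and 13, while leaving out the WT or the TKO remote library gave 0 each, so the calls rest on the test and on single libraries. Their summed level was 3.25-fold lower in WT and 1.96-fold lower in TKO.

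Nuclear respiratory genes are known targets of NRF1, a factor that binds a GC-rich palindrome in their promoters, and the promoters of *Uqcrc1* and *Sucla2* hold its core. Both are shown as RefSeq gives them for GRCm38.p6, from 250 bases before to 50 bases after a transcription start, with each match to CGCANGCG, searched on both strands, in capitals. *Uqcrc1* lies at chr9:108936398-108936697 on the + strand, with 2 matches, and *Sucla2* at chr14:73552536-73552835 on the + strand, with 1.
Uqcrc1: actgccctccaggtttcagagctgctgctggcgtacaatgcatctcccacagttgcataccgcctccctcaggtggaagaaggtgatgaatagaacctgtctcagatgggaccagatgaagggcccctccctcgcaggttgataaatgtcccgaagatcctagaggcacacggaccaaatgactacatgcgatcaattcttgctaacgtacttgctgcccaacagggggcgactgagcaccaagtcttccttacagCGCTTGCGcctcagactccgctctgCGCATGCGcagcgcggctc
Sucla2: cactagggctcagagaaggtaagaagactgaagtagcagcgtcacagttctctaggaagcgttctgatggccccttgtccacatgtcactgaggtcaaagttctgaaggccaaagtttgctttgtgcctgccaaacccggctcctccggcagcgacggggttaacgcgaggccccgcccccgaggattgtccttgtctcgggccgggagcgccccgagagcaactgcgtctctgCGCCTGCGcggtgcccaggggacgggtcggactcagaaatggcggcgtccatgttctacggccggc

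This core stood in 8.21% of all 32851 promoters and in 16% of the promoters of tested genes. It stood in 38.9% of 72 promoters of complex I to V subunits, 37.5% of 24 promoters of the tricarboxylic acid cycle, and 27% of 74 promoters of mitochondrial ribosomal proteins, but in 17.9% of 28 promoters of the fatty acid list and 17.6% of 17 promoters of the fibrillar collagen list, near the share of tested genes. Among the genes called lower at least 2-fold in both genotypes it stood in 13.9% of 361 promoters, and among those called higher at least 2-fold in 5.85% of 1334. A match is a run of letters and not a bound site. Motifs of ETS proteins, MEF2, the estrogen-related receptors, and AP-1 were searched as well. The ETS core CCGGAAG stood in 33.8% of promoters of mitochondrial ribosomal proteins, against 16.4% for tested genes. The MEF2 motif stood in 3.57% of promoters of the fatty acid list and 4.17% of the cycle, against 14.9%. The estrogen-related receptor motif stood in 0% of the fatty acid list, against 0.704%.

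Genes of excitation and calcium cycling were lower as well. Of 20 tested channels of the cardiac action potential, 18 fell and none rose, with a median 2.75-fold lower. *Kcnj3*, a subunit of the acetylcholine-gated potassium channel, had 11.6 and 22.4 CPM in the WT and TKO infarct zones and 76.4 and 69.8 in the remote zones (edgeR adjusted p = 0.00923), and *Hcn4*, the pacemaker channel, had 2.22 and 2.99 against 7.72 and 10.2. Both are strong in atrial and conduction tissue, several atrial markers were high in the remote libraries, and their part was not tested. Among 19 genes of calcium cycling 13 fell and 1 rose, 68.4% and 5.26%, against 23.7% and 25.1% of all tested genes. The 13 included *Sln*, at −4.346 on the log2 scale, which is also on the atrial list, and the part of atrial tissue in its fall was not tested. *Ryr2*, the calcium release channel, had 186 and 401 CPM against 600 and 791 (edgeR adjusted p = 0.0167), and *Casq2*, the calcium store protein of the sarcoplasmic reticulum, had 292 and 479 against 901 and 934. The one that rose was *Stim1*, the sensor of store-operated calcium entry in many cell types, with 29.9 and 26.0 CPM in the infarct zones and 15.9 and 15.7 in the remote zones. *Atp2a2*, the SERCA2a pump, was 2081 and 4905 CPM against 9566 and 11540 and was not called (edgeR adjusted p = 0.205). Without the WT remote library 4 calcium genes were called lower, and without the genotype block 5.

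Sarcomere genes had a median 2.29-fold lower in the infarct zone, but 10 of 23 were called, all lower. *Tcap*, the telethonin that anchors titin at the Z-disc, had 422 and 746 CPM in the WT and TKO infarct zones and 1746 and 1723 in the remote zones (edgeR adjusted p = 0.0228). *Ldb3* fell by 1.26 and *Csrp3* by 1.20 on the log2 scale, both Z-disc components. The most abundant members were lower in both genotypes without passing: *Myh6*, the fast cardiac myosin, had 1072 and 3654 CPM against 5274 and 7150, a log2 ratio of −2.30 in WT and −0.97 in TKO (edgeR adjusted p = 0.135), and *Tnni3*, cardiac troponin I, had 737 and 1570 against 3112 and 3326 (edgeR adjusted p = 0.0551). The count rests on the test and on single libraries. DESeq2 called 22 lower and 1 higher, the fit to all 8 libraries called 19 lower, and leaving out the WT infarct, TKO infarct, WT remote, or TKO remote library gave 18, 22, 0, and 9.

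The fetal and wall stress genes split. *Myh7*, the slow myosin that hypertrophied mouse ventricle takes up again, had 1155 and 1190 CPM in the WT and TKO infarct zones and 839 and 434 in the remote zones and was not called (edgeR adjusted p = 0.081). *Nppa*, atrial natriuretic peptide, had 2987 and 2086 CPM against 1962 and 489 and was not called either. Of the 13 genes tested 5 rose, 38.5%, against 25.1% of all tested genes. At least 2-fold in both genotypes were 3 of them: *Ccn2*, a matricellular growth factor, by 2.65 on the log2 scale, *Actn1*, the non-muscle alpha-actinin, by 1.63, and *Uchl1*, a ubiquitin hydrolase, by 1.24. The gene that fell was *Xirp1*, an actin-binding protein of the intercalated disc, at −0.99. Without 1 of the libraries other than the TKO infarct library, 3 rose.

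Cardiac transcription factors mostly fell, with 15 of 19 lower and 1 higher, 78.9% and 5.26%, against 23.7% and 25.1% of all tested genes. *Tbx5*, which specifies atrial and left ventricular muscle, had 7.94 and 10.9 CPM in the WT and TKO infarct zones against 22.1 and 24.7 (edgeR adjusted p = 0.00555). *Smyd1*, a muscle methyltransferase, fell by 1.58, *Ppara*, the fatty acid receptor that drives beta-oxidation genes, by 1.42, and *Esrrb*, an estrogen-related receptor, by 1.38 on the log2 scale. *Tbx20* went the other way, with 125 and 111 CPM in the infarct zones and 76.0 and 60.0 in the remote zones (edgeR adjusted p = 0.0105). Without the WT remote library, 8 of the factors were called lower, and without the genotype block 9.

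Pairs of related genes, 1 typical of heart muscle and 1 more typical of other cells, offered a comparison within each library. The first gene, called the muscle form below, is not particular to heart muscle in every pair, for example *Cox4i1* and *Atp2b1*. The second gene is in some cases a smooth or skeletal muscle form, and for the calcium release channels it is a related but different protein. Of 48 such pairs, 47 had both genes tested. The muscle form fell in 32 of the 47 and rose in none, whereas the other form rose in 20 and fell in 8. Among all tested genes, 25.1% were called higher and 23.7% lower. The medians of the muscle and the other forms were −1.35 and 0.17 on the log2 scale. In 43 pairs the muscle form lay below the other form in both genotypes, which does not depend on the scaling of the libraries. In 10 pairs the forms crossed outright, the muscle form falling while the other rose, and most of them are named next by function.

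Creatine kinase was one of them. *Ckm*, the muscle form, had 251 and 530 CPM in the WT and TKO infarct zones and 1035 and 1164 in the remote zones, while *Ckb*, the brain form, had 76.2 and 70.5 against 54.0 and 45.0. The first was 4.13-fold lower in WT and 2.20-fold lower in TKO, and the second 1.41-fold and 1.57-fold higher. Among metabolic enzymes the others were phosphofructokinase (*Pfkm* at −1.38, *Pfkp* at 0.50), acetyl-CoA carboxylase (*Acacb* at −1.38, *Acaca* at 0.69), and the pyruvate dehydrogenase kinases (*Pdk4* at −1.28, *Pdk3* at 1.16). Of the structural and channel pairs, alpha-actinin (*Actn2* at −1.19, *Actn1* at 1.63), leiomodin (*Lmod2* at −1.19, *Lmod1* at 1.81), connexins (*Gja1* at −0.71, *Gja4* at 1.15), and calcium release channels (*Ryr2* at −1.33, *Itpr3* at 0.92) crossed.

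RNA of the 2 forms of ribosomal protein L3 crossed as well, and ribosomes themselves were not measured. *Rpl3l*, a form of ribosomal protein L3 particular to heart and skeletal muscle, had 32.5 and 103 CPM in the WT and TKO infarct zones and 176 and 269 in the remote zones (log2 −1.90, edgeR adjusted p = 0.0112), and *Rpl3*, the form of other cells, had 411 and 304 against 248 and 157 (log2 0.84, edgeR adjusted p = 0.016). Most cytosolic ribosomal proteins did not pass the test, with 2 of 83 called higher and 4 lower and a median of 0.08. That count depends on the scaling, since 69 were called higher with plain total counts. In 6 pairs both forms fell, among them lactate dehydrogenase (*Ldhb* at −1.52, *Ldha* at −0.72) and glycogen phosphorylase (*Pygm* at −1.26, *Pygb* at −1.20).

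**Figure D3:**
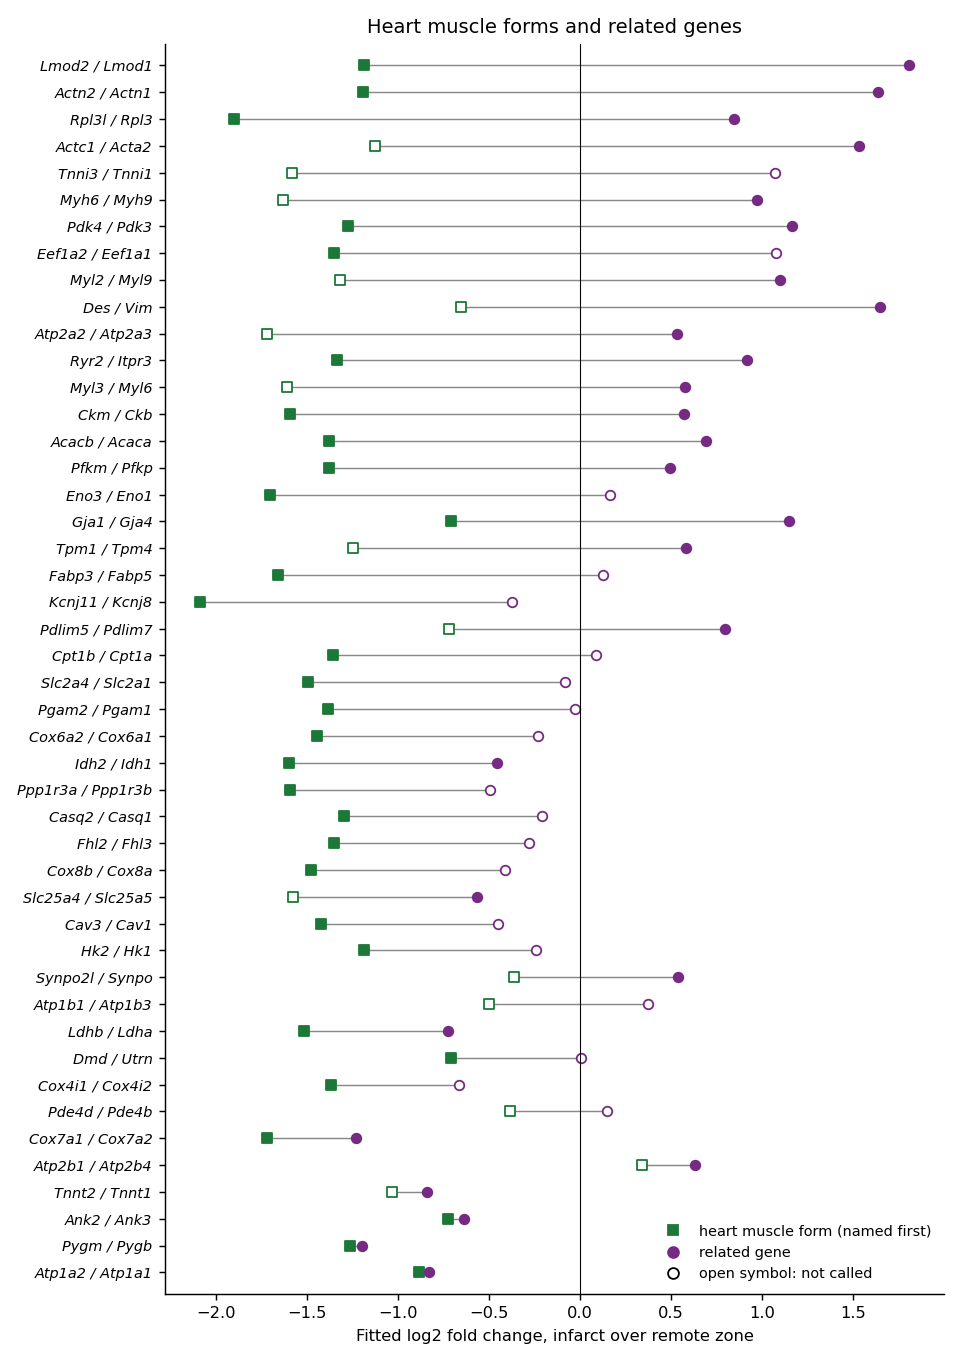
Fitted log2 fold change, infarct over remote zone, of genes listed as the heart muscle form (squares) and their related genes (circles), 1 pair a line. Open symbols mark genes not called, and 1 tested pair was left out. Squares lay to the left of circles in nearly all pairs, and the muscle form was called higher in none.

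Extracellular matrix rose in both genotypes, and it held the largest gains of RNA. Of 27 tested genes for fibrillar collagens and their assembly, 23 rose and none fell, with a median 4.93-fold higher, against 25.1% of all tested genes called higher. *Col3a1*, the collagen of pliable scar (chromosome 1, 45311538 to 45349706), had 2484 and 2032 CPM in the WT and TKO infarct zones and 312 and 158 in the remote zones. The infarct libraries lay above the remote ones by 7.95-fold in WT (95% interval 7.79 to 8.12) and 12.9-fold in TKO (12.5 to 13.3), and the fitted log2 change was 3.34 ± 0.37 (SE, edgeR adjusted p = 0.0068). *Col1a1* had 1025 and 822 CPM against 114 and 76.9, and *Col1a2* 1649 and 1320 against 202 and 124, so both chains of type I collagen moved together. *Lox*, the enzyme that crosslinks collagen, had 160 and 96.7 CPM against 13.3 and 5.55 (edgeR adjusted p = 0.00315).

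Small leucine-rich proteoglycans, which space the collagen fibrils, rose in 10 of 11 cases, with *Bgn* (biglycan) at 2059 and 1414 CPM against 350 and 216, *Fmod* (fibromodulin) up by 3.66, and *Dcn* (decorin) by 1.55 on the log2 scale. *Bgn* and *Sparc*, a collagen-binding matricellular protein with 2125 and 1461 CPM against 520 and 354, ranked just below *Col3a1* in the CPM gained. Elastic fibres rose in 15 of 16 genes. *Eln*, elastin itself, had 335 and 239 CPM against 48.0 and 32.0, and *Ltbp2*, a microfibril protein, 402 and 304 against 37.3 and 13.7. Of 18 matricellular genes, which tune how cells read the matrix, 16 rose. *Cthrc1*, a mark of activated scar fibroblasts, had 16.1 and 11.3 CPM against 1.31 and 0.30, *Tnc* (tenascin C) rose by 2.82, and *Thbs1* (thrombospondin 1) by 3.06 on the log2 scale. Periostin, *Postn*, had 795 and 702 CPM in the infarct zones and 217 and 72.1 in the remote zones, so the 2 infarct libraries were closer to each other than the 2 remote libraries were. Basement membrane and network collagens moved less, with 17 of 23 called higher, a median 1.75-fold higher, and 9 called without the WT remote library. *Col8a2*, a short-chain network collagen, stood out among them at 88.4 and 60.5 CPM against 4.54 and 2.33.

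Genes of the mature scar fibroblast, shared with tendon and cartilage, showed the largest median of the matrix lists. Of 20 tested, 18 rose, 17 of them at least 2-fold in both genotypes, and the median was 7.68-fold higher. Members low in the remote libraries, such as *Col2a1*, could reach the level required for testing mainly through the infarct libraries. With at least 10 counts in each infarct and remote library, 18 were tested and 15 rose. The median log2 change was then 2.742 instead of 2.942, with the matricellular list next at 2.348. *Comp*, cartilage oligomeric matrix protein, which bundles collagen in tendon and cartilage (chromosome 8, 70373558 to 70382066), had 1272 and 843 CPM in the WT and TKO infarct zones and 63.7 and 24.4 in the remote zones. That was 20.0-fold in WT (95% interval 19.1 to 20.9) and 34.6-fold in TKO (32.1 to 37.2), with a fitted log2 change of 4.71 ± 0.32 (SE, edgeR adjusted p = 0.00315). *Angptl7*, a secreted angiopoietin-like protein, had 537 and 456 CPM against 29.3 and 22.7 (18.3-fold in WT and 20.1-fold in TKO), so the genotypes were close. Collagens of cartilage were present too. *Col11a1* had 21.0 and 16.7 CPM against 0.99 and 0.86, and *Col2a1* 10.7 and 3.38 against 0.43 and 0.13. *Mgp*, an inhibitor of calcification, had 1278 and 797 CPM against 234 and 156.

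Markers of fibroblasts as a cell type rose too. Of 18, 16 rose, with a median 2.53-fold higher, and 9 were called without the WT remote library. *Pdgfra*, the growth factor receptor that marks cardiac fibroblasts, had 94.6 and 78.6 CPM in the infarct zones and 34.3 and 33.2 in the remote zones, and *Tcf21*, their lineage factor, 42.3 and 25.8 against 12.1 and 9.03. The difference between this list and the matrix lists was not tested.

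Secreted Wnt antagonists rose and fell within 1 family. *Sfrp2*, which binds Wnt ligands outside the cell and is made by scar fibroblasts (chromosome 3, 83766321 to 83774316), had 520 and 359 CPM in the WT and TKO infarct zones against 27 and 9.10. The ratio was 19.3-fold for WT and 39.4-fold for TKO (edgeR adjusted p = 0.00315). *Frzb* (sFRP3) had 152 and 95.6 CPM against 16.9 and 7.74 and *Nkd2*, an inhibitor inside the cell, 36.0 and 21.8 against 4.73 and 3.09. In contrast, *Sfrp5* had 4 and 10 counts in the infarct zones and 83 and 74 in the remote zones (edgeR adjusted p = 0.00917), and *Wif1*, Wnt inhibitory factor 1, fell by 1.73 on the log2 scale. In all 9 of 13 rose and 2 fell, 69.2% and 15.4%, against 25.1% and 23.7% of all tested genes. Of 19 genes of TGF-beta and BMP signalling 17 rose and none fell, led by the BMP antagonist *Grem1* (log2 3.44) and the ligands *Gdf6* (2.62), *Tgfb3* (2.47), and *Inhbb* (2.39). *Grem1* had 36 and 132 counts against 4 and 8, a low depth. Without the WT remote library, 10 of the 19 were called.

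Enzymes that cut the matrix also split. Of 21 metalloproteinases and their inhibitors, 17 rose and 2 fell, and 11 were called higher without the WT remote or without the TKO infarct library. *Mmp2*, a gelatinase of fibroblasts, had 453 and 397 CPM against 84.8 and 61.7, and *Mmp3*, stromelysin, 63.1 and 27.6 against 7.79 and 2.59. *Timp1*, an inhibitor induced in injury, had 46.8 and 24.8 CPM against 7.66 and 2.52, whereas *Timp4*, the inhibitor abundant in the heart, had 12.6 and 20.5 against 49.8 and 43.5 (log2 −1.53, edgeR adjusted p = 0.0119). *Mmp15*, a membrane-bound enzyme, fell by 1.48 on the log2 scale.

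**Figure D4:**
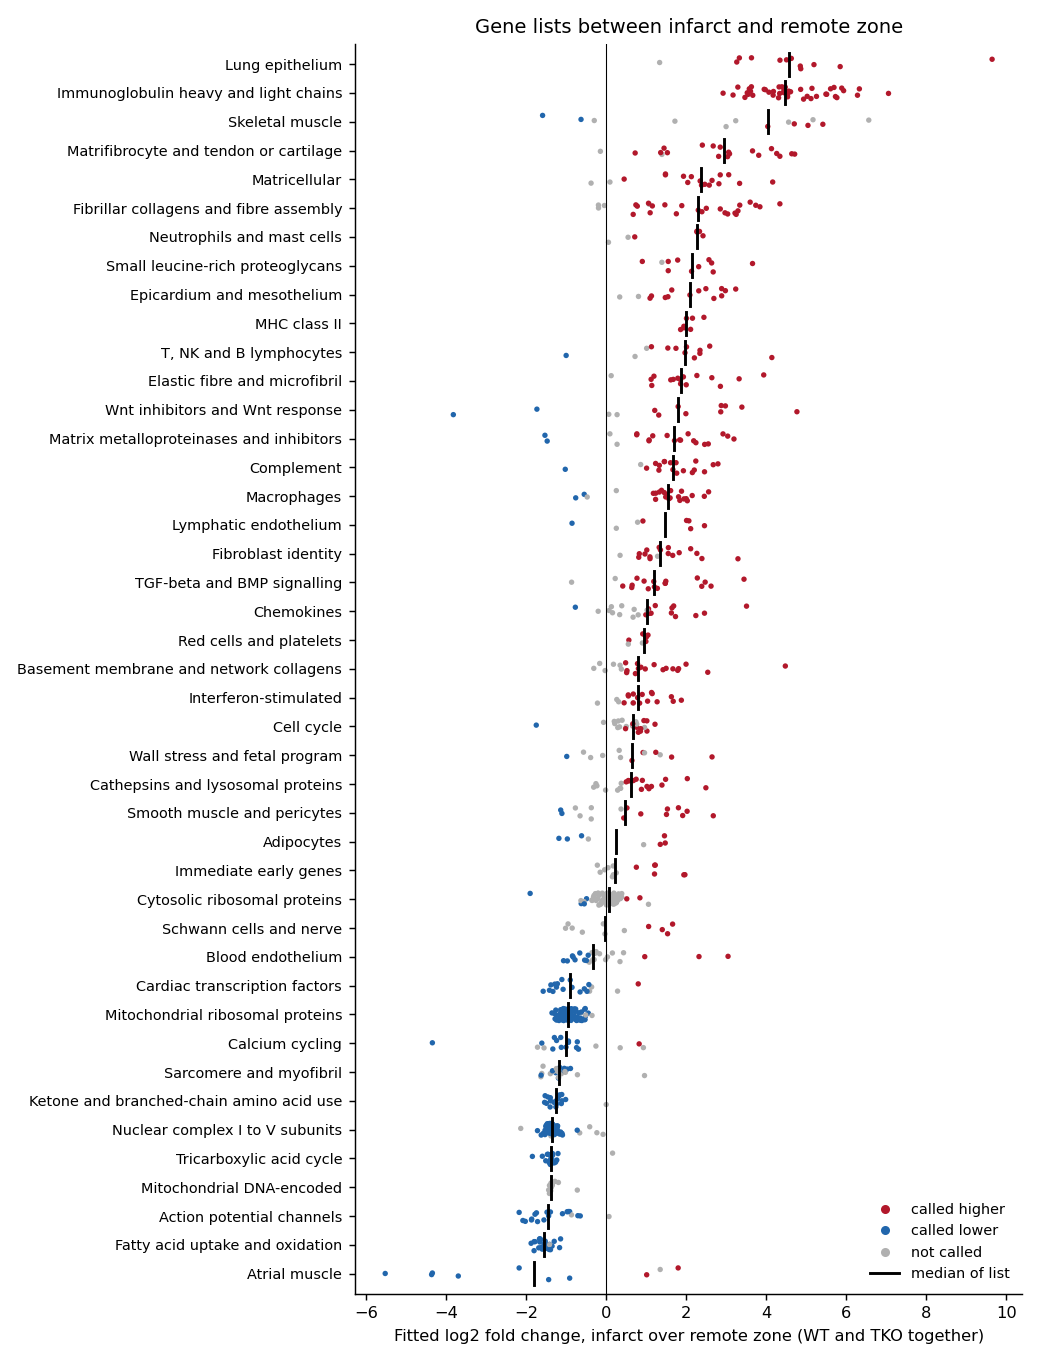
Fitted log2 fold change, infarct over remote zone, of every tested member of each gene list, with red for called higher, blue for called lower, grey for not called, and a black bar at the list's median. Matrix, immune, and epicardial lists lay to the right of 0 and metabolic, excitation, and sarcomere lists to the left; the 2 lists at the top hold genes of lung epithelium and antibody chains.

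Macrophage genes were higher in the infarct zone, with 20 of 24 called higher and 2 lower, 83.3% and 8.33%, against 25.1% and 23.7% of all tested genes. Their median was 2.90-fold higher. *Adgre1*, the F4/80 antigen, had 58.2 and 45.5 CPM in the WT and TKO infarct zones and 18.9 and 15.1 in the remote zones. *Cd68*, a lysosomal marker, had 36.6 and 26.7 CPM against 13.5 and 8.20, and *Lgals3*, galectin-3, 85.2 and 50.3 against 20.7 and 5.71. *Ccr2*, the receptor by which monocytes enter tissue, rose by 2 and *Cx3cr1* by 2.45 on the log2 scale, while *Cd163* fell by 0.76 and *Folr2* by 0.55, both often used as markers of resident macrophages. *Mrc1*, the mannose receptor, rose by 1.24. *Lyve1* and *Timd4*, also used as resident markers, did not pass, with 33.4 and 31.0 CPM against 27.3 and 26.7 for the first and 1.28 and 1.40 against 1.41 and 2.39 for the second. The fall of *Folr2* turned to 0.09 with plain total counts, and neither it nor *Cd163* was called when any 1 of the 4 libraries was left out.

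*Ctss*, the cathepsin that trims the chaperone of MHC class II, and *Fcgr1*, the high-affinity receptor for IgG, rose in both genotypes, by 2.03 and 2.15 on the log2 scale. *Ctss* had 154 and 88.6 CPM in the infarct zones and 37.9 and 21.6 in the remote zones, and *Fcgr1* 12.4 and 8.36 against 2.53 and 2.09. Both promoters hold the core of the site of PU.1, the factor that sets up macrophages, and are shown as above with GAGGAAG, searched on both strands, in capitals. Both matches lie on the other strand and so read CTTCCTC. *Ctss* lies at chr3:95526536-95526835 on the + strand and *Fcgr1* at chr3:96293920-96294219 on the − strand.
Ctss: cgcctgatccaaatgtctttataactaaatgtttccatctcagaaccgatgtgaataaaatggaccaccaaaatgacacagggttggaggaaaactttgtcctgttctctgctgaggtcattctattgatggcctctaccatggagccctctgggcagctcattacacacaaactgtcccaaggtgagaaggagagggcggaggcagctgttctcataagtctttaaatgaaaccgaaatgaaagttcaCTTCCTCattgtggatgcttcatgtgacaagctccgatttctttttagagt
Fcgr1: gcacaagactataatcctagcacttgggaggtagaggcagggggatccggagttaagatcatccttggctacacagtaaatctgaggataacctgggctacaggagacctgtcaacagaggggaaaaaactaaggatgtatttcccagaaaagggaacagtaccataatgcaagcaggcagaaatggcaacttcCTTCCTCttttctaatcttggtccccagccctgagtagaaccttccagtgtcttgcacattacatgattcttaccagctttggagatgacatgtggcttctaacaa

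These letters stood in 13.6% of all promoters and in 38.1% of 21 promoters of the macrophage list. Among genes called higher at least 2-fold in both genotypes they stood in 19% of promoters, and among those called lower at least 2-fold in 11.6%.

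Antigen presentation and complement rose with them. All 7 tested MHC class II genes rose at least 2-fold in both genotypes. *Cd74*, the chaperone of class II, had 486 and 293 CPM in the infarct zones against 117 and 82.5, and *Ciita*, the master regulator of the class, 11.3 and 7.33 against 1.77 and 1.59. Of 19 complement genes 17 rose and 1 fell, 89.5% and 5.26%, against 25.1% and 23.7% of all tested genes. *C3*, on which all complement pathways converge, had 1087 and 888 CPM against 161 and 147 (edgeR adjusted p = 0.00384), and *Cd59a*, which shields cells from complement, fell by 1.02 on the log2 scale. Of 22 cathepsins and lysosomal proteins 14 rose, or 63.6%, against 25.1% of all tested genes. *Ctsk*, a collagen-cleaving cathepsin, had 67.9 and 52.7 CPM against 18.3 and 5.91. *Apoe*, a lipid carrier made in quantity by macrophages, had 1688 and 1319 CPM against 534 and 443.

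Antibody chains gave most of the steepest rises. Of 44 tested immunoglobulin genes, a set drawn up after the values were seen, 44 rose, each at least 2-fold in both genotypes. The other members of 114 in the table did not reach the level required, and those tested reached it mainly through the infarct libraries, so the count was largely fixed by that filter. With at least 10 counts in each of the 4 infarct and remote libraries 8 were tested, and 8 rose. The sum over all 114 was 1775 and 1326 CPM in the WT and TKO infarct zones and 112 and 48.8 in the remote zones. It was 388 and 229 in the border zones and 243 and 26.8 in the left ventricles. *Ighg1*, a constant region of IgG, had 81.4 and 34.4 CPM in the infarct zones against 0.95 and 0.46 in the remote zones, and *Igha*, that of IgA, 571 and 559 against 44.1 and 17.9. *Jchain*, which joins IgA and IgM, had 176 and 135 CPM against 14.4 and 5.12. *Cd79a*, part of the B cell receptor, was at a lower level, 6.41 and 3.83 CPM against 1.25 and 0.76. Secreted IgA is also made in the airway wall, the genes of lung epithelium were high in the same libraries, and their part was not tested. Variable segments are near-copies of each other, so the split of counts among them is uncertain. Of 13 tested lymphocyte genes 10 rose and 1 fell, with 1 called without the WT remote library, 6 without the WT infarct library, and *Cd28*, a T cell co-stimulator, as the one that fell.

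Chemokines and interferon genes rose with less stability. Of 23 chemokines 12 rose and 1 fell, 52.2% and 4.35%, against 25.1% and 23.7% of all tested genes. Of the 23, 16 moved the same way in both genotypes. Those that rose included *Cxcl13*, which attracts B cells, at 18 and 4.81 CPM against 1.28 and 0.60, and *Ccl21a*, of lymphatic vessels, at 89.0 and 72.8 against 19.0 and 11.3. Of 19 interferon-stimulated genes 15 rose, though *Mx1* (1.88) and *Oas3* (1.67) were among only 3 that rose at least 2-fold in both genotypes. Without the WT infarct, WT remote, or TKO remote library, 5, 5, and 7 chemokines and 6, 5, and 7 interferon genes were called higher. Of 7 tested genes of neutrophils and mast cells 5 rose, with *S100a8* at 12.7 and 6.80 CPM against 3.15 and 0.96, and 3 were called without the WT remote library.

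Blood vessel genes did not move as one. Of 24 endothelial genes 3 rose and 9 fell, 12.5% and 37.5%, against 25.1% and 23.7% of all tested genes. *Selp*, P-selectin of venules, had 7.52 and 4.95 CPM in the WT and TKO infarct zones against 0.99 and 0.53, *Plvap*, the diaphragm protein of leaky vessels, 82.6 and 47.5 against 16 and 9.86, and *Vwf* rose by 0.96 on the log2 scale. Capillary genes that serve lipid and water transport fell, *Gpihbp1*, which docks lipoprotein lipase, by 1.07, *Fabp4* by 0.97, and *Aqp1* by 0.84. *Pecam1*, common to all endothelium, had 142 and 150 CPM against 143 and 142. The calls among the fallers rest on the scaling and on single libraries. With plain total counts 9 endothelial genes were called higher and 1 lower and the list's median turned from −0.32 to 0.32, and without the WT infarct library 1 was called lower and without either remote library none. Lymphatic genes rose in 5 of 8 and fell in 1, 62.5% and 12.5%, against 25.1% and 23.7% of all tested genes. Those that rose included *Ccl21a* (log2 2.46), *Reln* (2.07), and *Mmrn1* (2.01). *Prox1*, the lymphatic master factor that heart muscle also expresses, fell by 0.86.

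Smooth muscle genes rose in 9 of 16 and fell in 2, 56.2% and 12.5%, against 25.1% and 23.7% of all tested genes. *Tagln*, an actin-binding protein of contractile cells, had 211 and 118 CPM in the infarct zones and 47.0 and 37.7 in the remote zones, and *Acta2*, smooth muscle actin and the hallmark of the myofibroblast, 290 and 182 against 80.7 and 78.5 (log2 1.53, edgeR adjusted p = 0.00902). In these genes the WT infarct library lay above the TKO one. *Abcc9*, the ATP-sensitive potassium channel subunit of pericytes and heart muscle, fell by 1.14 and *Myocd*, a coactivator of smooth and cardiac muscle genes, by 1.11. Without the WT remote library 5 were called higher.

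Genes of the outer lining of the heart rose, 13 of 15 epicardial and mesothelial genes being higher and none lower. *Upk3b*, a mesothelial membrane protein, had 32.3 and 21.8 CPM in the infarct zones against 6.01 and 1.96, *Bnc1* had 206 and 83 counts against 16 and 7, and *Wt1* rose by 1.10 on the log2 scale. Without the WT or the TKO remote library, 6 and 8 were called. Pleura is lined by mesothelium as well, lung genes were high in these libraries, and their part was not tested. Of 11 nerve and Schwann cell genes 4 rose, against 25.1% of all tested genes, including *Mbp*, myelin basic protein (1.40), and 2 without the WT or the TKO remote library, though the list's median was −0.03. Of 8 adipocyte genes 3 rose and 3 fell, 37.5% each, against 25.1% and 23.7% of all tested genes. None was called higher in the fit to all 8 libraries. With 1 of the 4 libraries left out, the list's median log2 change ran from −0.193 to 0.758.

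For comparison with the remaining lists, 25.1% of all tested genes were called higher. Red cell and platelet genes rose in 6 of 8, with the globin gene *Hba-a2* at 1345 and 1448 CPM against 658 and 696. Immediate early genes, which also respond to the handling of tissue, rose in 6 of 14, with *Fosb* at 1.94 and *Egr1* at 1.21 on the log2 scale, and in 2 without the WT remote library. Cell cycle genes rose in 11 of 24, mostly by less than 2-fold, with *Tyms*, which makes thymidylate, at 1.22, *Mcm6* at 0.94, and *Birc5* (survivin) at 1.02. *Cenpf*, a kinetochore protein, fell by 1.75. DESeq2 called 4 cell cycle genes higher and plain total counts 23, and leaving out the WT infarct, TKO infarct, WT remote, or TKO remote library gave 4, 5, 3, and 4.

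Ranked by the smaller of the 2 genotype ratios, antibody genes held 9 of the 12 top places, and the other 3, *Akap13*, *Tsc2*, and *Aqp5*, were listed at 0 in both remote libraries. *Akap13* and *Tsc2* are expressed in most tissues, and a count of 0 estimated from transcripts can be a failed estimate, so no fold is given for them. At the other end stood *Epha4*, an ephrin receptor (chromosome 1, 77367185 to 77515088), with 29 and 38 counts in the WT and TKO infarct zones and 667 and 807 in the remote zones. It was 32.0-fold lower in WT (95% interval 22.1 to 48.1) and 25.2-fold lower in TKO (18.2 to 35.9; edgeR adjusted p = 0.00315), and it had 528 to 919 counts in the border zones and left ventricles. *Slc16a7*, a monocarboxylate transporter, had 1 and 0 counts in the infarct zones and 71 and 73 in the remote zones, which is at least 32.9-fold lower in WT and at least 28.9-fold lower in TKO against a floor of 3 counts per library. *Hamp*, hepcidin, which blocks iron export, had 7 and 1 counts against 152 and 85. Hepcidin was at 4 to 14 counts in the border zones and left ventricles, so here it was the remote libraries that stood apart, as they did for the atrial genes *Bmp10*, *Sln*, *Myl7*, *Myl4*, and *Mybphl*, all of which hold places among the 12 lowest. *Gpr22*, an orphan receptor of heart muscle, had 68 and 106 counts against 292 and 729, and *Scd4*, a stearoyl-CoA desaturase of the heart, 139 and 94 against 1180 and 600.

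The border zone and the left ventricle libraries took no part in the test, although the scaling included them. Of the 3258 genes called higher in the infarct zone, 2015 (61.8%) were also higher in the border zone than in the left ventricle in both genotypes, against 30.9% of all tested genes. Of the 3084 called lower, 1952 (63.3%) were lower there, against 32.3% of all. The sizes were smaller. Genes called higher had a median of 1.29-fold in WT and 1.18-fold in TKO between border zone and left ventricle. *Comp* had 212 and 68.6 CPM in the WT and TKO border zones and 11.8 and 11.3 in the left ventricles, and *Sfrp2* 90.2 and 30.4 against 4.05 and 4.05, with the WT border library well above the TKO one in both. *Fabp3* had 2800 and 3160 CPM in the WT and TKO border zones against 3287 and 3449 in the left ventricles, lower in both. Fatty acid genes as a list were lower in the border zone for 25 of 27 members, with medians of −0.69 in WT and −0.26 in TKO on the log2 scale. The labels and methods do not name which hearts, with or without infarction, gave the left ventricle libraries.

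**Figure D5:**
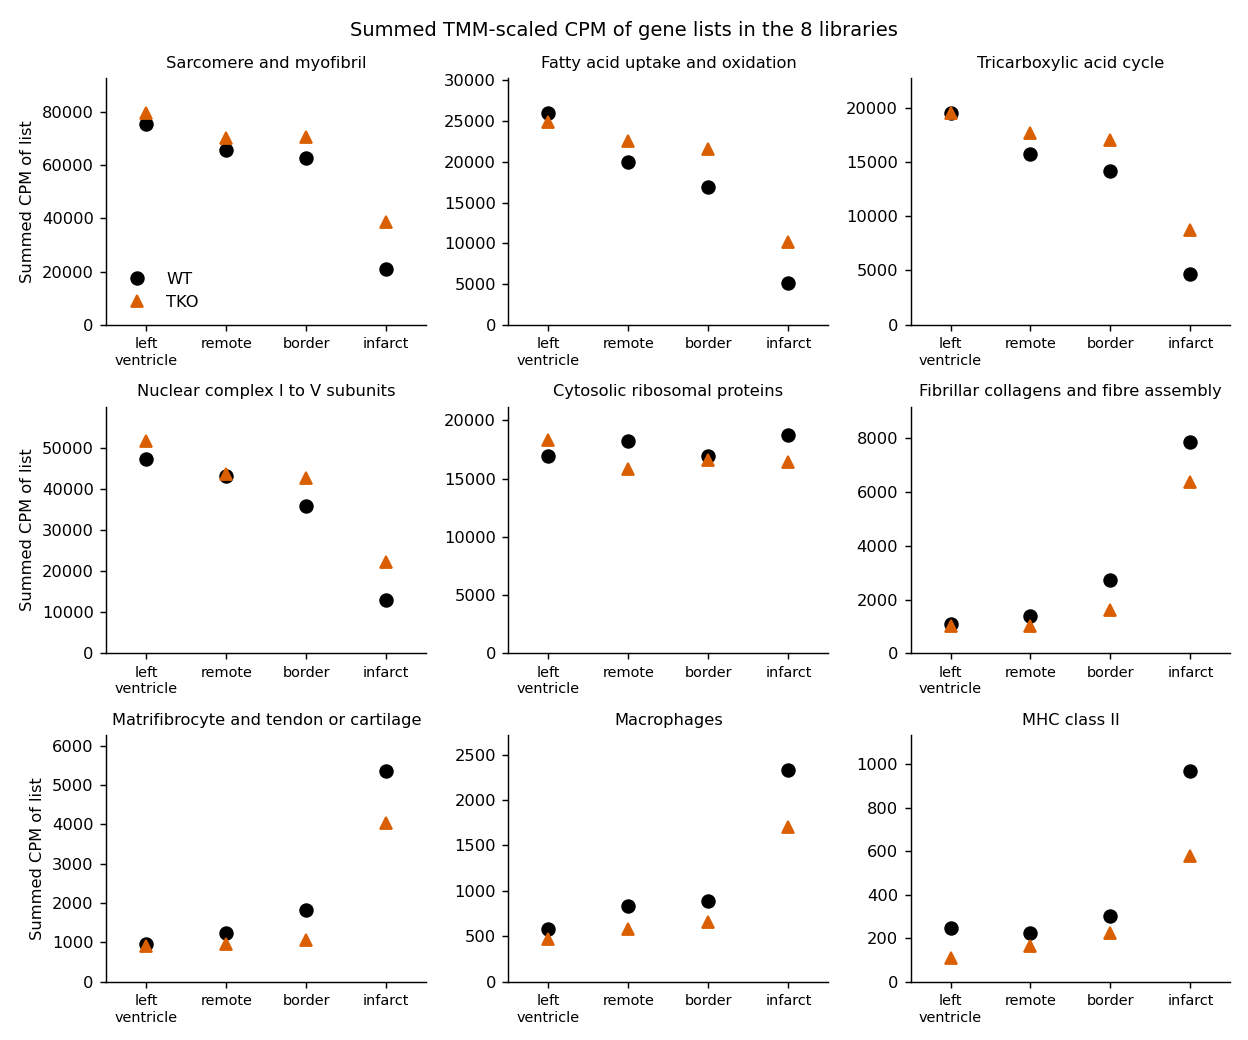
Summed TMM-scaled CPM of 9 gene lists in each of the 8 libraries, WT as circles and TKO as triangles, by region; each axis starts at 0. Sarcomere and metabolic lists were lowest in the infarct libraries, WT below TKO, matrix and immune lists were highest there, and cytosolic ribosomal proteins lay between 15854 and 18738 in all 8.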

How the data were processed

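RNA was sequenced from 8 libraries, 1 for each of 4 heart regions in WT and TKO mice. Per the labels and the study's methods, the authors trimmed reads with Trim Galore 0.6.5, quantified transcripts with kallisto 0.46 against mm10, and summed them to genes with tximport, and the deposited table holds estimated counts for 16994 genes as whole numbers. Reads that match several transcripts are shared by estimation, so near-identical genes and a gene listed at 0 are uncertain.

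The 12999 genes that averaged 1 CPM or more over the 8 libraries, before TMM scaling, were fitted in edgeR 4.0.16 (R 4.3.3). The fit used the 4 infarct and remote libraries, with genotype as a block and TMM factors from all 8. Adjusted p-values are Benjamini-Hochberg values over all genes tested. Each SE is the absolute fitted log2 change divided by the square root of the quasi-likelihood F statistic, and was not taken from the fit itself. Per genotype, CPM ratios have 95% exact binomial (Clopper-Pearson) intervals, which cover counting error only, and bounds use a floor of 3 counts per library. The script was tested on simulated data. Alternatives covered scaling, the filter, DESeq2 1.42.0, the block, all 8 libraries, and leaving out each library.

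The comparison, its gene lists, and its isoform pairs were chosen with earlier results of these data known, and the immunoglobulin and lung lists after the values were seen. Genes named were the 12 called genes with the highest and the 12 with the lowest ratio, ranked by the smaller genotype ratio; the 8 with the largest CPM difference each way; in each list up to 4 called members with the largest ratio and up to 4 called against it; both genes of each pair; *Tigar*, *Postn*, and *Lgals3*; and up to 6 that moved opposite ways in the genotypes. Other members were named to show a list's usual markers, after their values were seen. Coordinates are GENCODE vM21 (GRCm38), matched for 16867 genes, and promoters are RefSeq GRCm38.p6. A few genes of the lists are not reported here by name.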

Additional observations from a re-analysis of the deposited data

Results flagged for a closer look

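There were 15 genes that moved at least 4-fold one way in 1 genotype and at least 2-fold the other way in the other, and the 6 named by the rule follow. The difference between the genotypes was not tested, since each has 1 library a zone. *Myh4*, a fast skeletal myosin, had a log2 ratio of 7.763 in WT and −1.523 in TKO, from 1486 and 3 counts in the WT infarct and remote zones and 1 and 6 in the TKO zones. *Scgb1a1*, an airway secretory protein, stood at −2.181 and 6.434, from 108 and 359 counts in WT and 1220 and 10 in TKO. The other 4 had 0 counts in at least 1 of the 4 libraries. *Nrbp2* stood at −4.276 in WT and 6.494 in TKO, *Rinl* at −4.832 and 5.199, *Adam9* at 4.058 and −4.556, and *Gm14440* at 1.956 and −5.235. *Adam9* was also listed at 0 in the WT border zone and left ventricle, and had 235 and 171 counts in those of TKO. For these 4 the fitted ratio depends on the prior count and is no measure of size.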

How the results depend on the processing

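With 2 libraries a side the counts of calls rest on each library. Leaving out 1 of the 4, in a fit to all 8 libraries where the lone sample is assumed to vary like the other groups, gave 2683 to 5629 calls, 1485 to 2675 higher and 1198 to 2954 lower. At least 2-fold, asked here only of the genotype that still has both zones, were 1380 to 3259, with 1098 to 1749 higher and 282 to 1510 lower. The fewest calls came without the WT remote library and the most without the TKO infarct library. Plain total counts gave 7649 higher and 844 lower, and at least 2-fold 3074, with 3023 higher and 51 lower. Of the 6342 calls, 4082 kept their call and 1001 turned sign under total counts, with none called the other way. Under that scaling the median of blood endothelium turned to 0.317, *Folr2* to 0.087, *Lipe* to 0.019, *Myl1* to 0.010, *Rps4l* to 0.089, *Cox6a1* to 0.402, *Slc25a5* to 0.071, *Pgam1* to 0.607, *Slc2a1* to 0.554, and *Idh1* to 0.180, and the cause was not tested. DESeq2 gave 4916 calls, the fit without the genotype block 4955, the fit to all 8 libraries 6566, and no filter 6707. With a library left out, the log2 ratio of Nrbp2 infarct over remote zone ran from −4.193 to 10.392. That of Adam9 infarct over remote zone ran from −8.430 to 9.826. Of 252 called genes that the text's rule named, 187 kept their call in every setting other than those that left out a library. List counts under each setting were added after seeing the data. No pairing of the zones by heart was possible, because the labels do not name the hearts behind each library. The genotype block of the reported fit pairs the 2 zones within each genotype.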
